A study of Mus musculus with 49 samples.

Results

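The comparison described here asks whether celecoxib acted on CT26 tumours in the same way with and without an antibody against PD-1. It is the difference of 2 celecoxib effects, the effect with antibody (anti-PD-1 plus celecoxib minus anti-PD-1) less the effect without antibody (celecoxib minus vehicle), called the interaction below. All 49 tumours of the series entered it, 33 in the effect with antibody and 16 in the effect without, so both effects share no tumour. CT26 is a colorectal carcinoma line of BALB/c mice, and every tumour was CT26 grown in BALB/c mice. From day 7 after injection, for 7 days, 9 tumours received vehicle (a mixture of DMSO, PEG400 and water), 7 received celecoxib at 30 mg/kg daily, 17 received 2 doses of anti-PD-1 of 200 µg each, and 16 received both agents (the combination). The tissue label gives day 7 of treatment and the extraction protocol day 4, and it is unclear which holds. The labels also mark each tumour R or NR without defining the terms. All vehicle and celecoxib tumours are NR, 4 of 17 anti-PD-1 tumours are R, and 12 of 16 combination tumours are R. No time of day of collection is given, and the labels do not state that each tumour came from its own animal, so every p-value speaks only of the spread among these samples, which may be partly technical.

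Celecoxib inhibits cyclooxygenase-2, the inducible enzyme encoded by Ptgs2 that starts prostaglandin synthesis from arachidonic acid. Prostaglandin E2, its main product in many tumours, acts on myeloid cells, lymphocytes and vessels through receptors that change cyclic AMP. PD-1 is an inhibitory receptor of T cells, and blocking antibodies against it release T cell activity. A positive interaction means that the celecoxib effect was higher with antibody than without, which includes genes whose effects have opposite signs.

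Total counts per library ranged from 4251251 to 13671294, with a median of 7670623. Defining markers of T cells, macrophages, endothelium and fibroblasts were detected, whereas the carcinoma keratins Krt8 and Krt18 had medians of only 3.3 and 12.2 CPM (counts scaled to the normalized library size), and the B cell marker Ms4a1 did not reach the level needed for testing. In 12 libraries the mean log2 CPM of a skeletal muscle list exceeded 3 or that of a skin or adipocyte list exceeded 5: 1 vehicle, 2 celecoxib, 5 anti-PD-1 and 4 combination libraries. The RNA is of whole tumours, so fewer cells of a type and less RNA per cell cannot be told apart.

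No gene showed a celecoxib effect that differed between the settings at an adjusted p under 0.05. Of 13726 genes tested with edgeR's quasi-likelihood test and Benjamini-Hochberg adjustment, 0 were called for the interaction (0%), and 413 had an unadjusted p under 0.05 (3.01%), 199 with a positive (1.45%) and 214 with a negative value (1.56%). DESeq2 called 2 genes, Dbp and Tef, and limma-voom called 1, Dbp. The effect without antibody likewise had 0 called genes (0%), with 314 at an unadjusted p under 0.05 (2.29%). With antibody, 69 genes passed (0.503%), of which 46 were higher (0.335%) and 23 lower (0.168%) in the combination than with anti-PD-1 alone, and 2359 had an unadjusted p under 0.05 (17.2%). The standard error of the interaction had a median of 0.26 over all genes on the log2 scale, against 0.21 for the effect without antibody and 0.15 for the effect with it.

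Opposite directions of the celecoxib effect were less frequent than equal directions among the estimates, and rare as measured effects. The signs of both effects differed in 5215 genes (38%). No gene passed an adjusted p under 0.05 for both effects with opposite signs (0%), and 3 genes had opposite signs with both effects at an unadjusted p under 0.05 (0.0219%): Fbxo44, Sfmbt2 and Slc2a8. Both effects reached that level with the same sign in 65 genes (0.474%). Across the 13726 genes the 2 effects correlated with a Pearson r of 0.39 and a Spearman rho of 0.32, a description over genes, which are not independent. Among the 413 genes with an unadjusted interaction p under 0.05, the effect with antibody alone reached that level in 248, the effect without antibody alone in 87, both in 8 and neither in 70. Genes of other tissue are among those counted here. Of 23 listed skeletal muscle genes, 23 were positive without antibody (22 at that level) and 22 with it (7 at that level). Their interaction was negative at that level in 14.

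**Figure D1:**
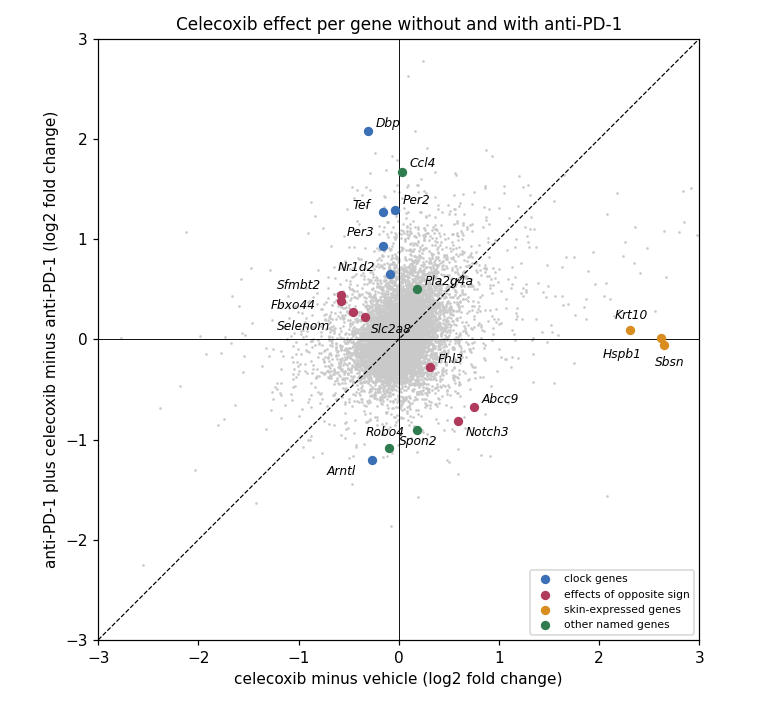
Each grey point is 1 gene, with the log2 fold change of celecoxib minus vehicle on the x axis and of the combination minus anti-PD-1 on the y axis. Points on the dashed line have equal effects. The 13656 genes within 3 log2 units are drawn and 70 lie outside. Dbp stands highest above the line among the clock genes (2.08 with and -0.30 without antibody), and Fbxo44, Sfmbt2, Slc2a8 and Selenom lie above and left of the origin, opposite to Fhl3, Notch3 and Abcc9.

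The genes of the prostaglandin pathway itself showed no member at an unadjusted interaction p under 0.05. Of 17 tested genes of synthesis, breakdown, transport and reception, 11 had a positive and 6 a negative interaction, with a median of 0.04 (all genes: 51.5% positive, median 0.01) that lay between 0.0024 and 0.14 when each library was left out. Ptgs2, the drug's target, ranged from 7.19 to 60.7 CPM with vehicle (median 12), from 5.41 to 29.6 with celecoxib (median 11.9), from 4.68 to 64.7 with anti-PD-1 (median 8.41) and from 1.62 to 77.7 in the combination (median 10.6). The groups overlapped throughout. Its interaction was 0.51 (SE 0.77, 95% interval -1.03 to 2.05), an interval that admits large differences in either direction, and without vehicle replicate 8 it was -0.07. Pla2g4a encodes the cytosolic phospholipase that releases arachidonic acid. It ranged from 26.8 to 39.1 CPM with vehicle (median 32.6), 28.9 to 53.1 with celecoxib (median 33), 19.4 to 53.2 with anti-PD-1 (median 33.8) and 32.9 to 70.4 in the combination (median 51.3). In the combination 15 of 16 tumours lay above the anti-PD-1 median, and Pla2g4a rose there by 0.50 (SE 0.11, edgeR adjusted p = 0.0336). Without antibody its effect was 0.18 (SE 0.16), and the interaction was 0.32 (95% interval -0.09 to 0.72). Abcc4, a transporter that exports prostaglandins, had effects of 0.14 without and -0.12 with antibody.

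Clock genes held the smallest interaction p-values. The circadian clock is a loop in which CLOCK and its partner, encoded by Arntl, switch on the Per and Cry repressors through E-box sequences. REV-ERB proteins (Nr1d1, Nr1d2) repress Arntl, and the PAR bZIP factors DBP, TEF and HLF carry the rhythm to genes with D-box sequences. Dbp, Tef, Per2, Per3 and Nr1d2 rose and Arntl fell with celecoxib under anti-PD-1, and none of the 6 passed without antibody. All 8 tested clock repressors had a positive interaction, with a median of 0.73, against 51.5% positive and a median of 0.01 over all genes. All 8 estimates were negative without antibody (median -0.16) and 7 were positive with it (median 0.45). Without vehicle replicate 8 the median interaction of the repressors was 0.43, with 7 of 8 positive.

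Promoter sequence was looked up for 18 clock genes in the RefSeq table on GRCm38.p6, which held windows of 250 bases before to 50 bases after the start for 16 of them. The windows were searched on both strands for the E-box CACGTG and for the D-box as TTATGTAA or TTACGTAA, motifs that do not overlap in letters. An E-box stood in 5 of the 16 genes and a D-box in 1. Of all 27025 genes with windows, 2187 had an E-box and 333 a D-box. By window, 7.15% of all 32851 held the E-box and 1.06% held the D-box. The bases before the start are shown for the 3 genes with the smallest interaction p, with matches in capitals. Per3 (chr4:151044666-151044915, minus strand) had D-boxes at -205 to -198 and -158 to -151 from the start. Tef had 1 E-box in each of its 2 windows (chr15:81802423-81802672 and chr15:81811164-81811413, plus strand), at -127 to -122 and -138 to -133. The Dbp window (chr7:45704997-45705246, plus strand) held neither motif, which says only that these letters are not in it.
Per3: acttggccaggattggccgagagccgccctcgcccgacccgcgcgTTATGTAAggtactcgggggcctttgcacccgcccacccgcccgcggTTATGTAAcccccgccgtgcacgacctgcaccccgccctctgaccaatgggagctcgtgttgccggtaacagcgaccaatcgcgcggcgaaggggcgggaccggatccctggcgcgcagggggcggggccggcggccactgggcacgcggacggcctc
Tef, first window: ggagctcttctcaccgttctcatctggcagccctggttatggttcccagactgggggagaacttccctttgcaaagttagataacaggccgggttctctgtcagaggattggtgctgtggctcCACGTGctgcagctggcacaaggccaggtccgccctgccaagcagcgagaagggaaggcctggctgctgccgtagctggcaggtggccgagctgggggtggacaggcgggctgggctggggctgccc
Tef, second window: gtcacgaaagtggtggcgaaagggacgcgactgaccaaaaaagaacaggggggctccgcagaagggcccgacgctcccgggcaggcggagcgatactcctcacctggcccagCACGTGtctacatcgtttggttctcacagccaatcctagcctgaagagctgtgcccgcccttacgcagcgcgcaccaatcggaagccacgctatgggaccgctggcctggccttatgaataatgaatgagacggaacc
Dbp: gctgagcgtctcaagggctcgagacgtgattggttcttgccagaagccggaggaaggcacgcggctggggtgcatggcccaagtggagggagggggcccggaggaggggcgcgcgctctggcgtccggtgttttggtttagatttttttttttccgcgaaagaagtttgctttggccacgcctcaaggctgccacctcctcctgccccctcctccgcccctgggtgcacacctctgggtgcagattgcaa

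Dbp (chr7:45705088-45710203, plus strand, GRCm38) ranged from 62.1 to 215 CPM with vehicle (median 85.3), from 46 to 107 with celecoxib (median 71.4), from 4.75 to 50.8 with anti-PD-1 (median 12.4) and from 14.4 to 155 in the combination (median 62.5). All 17 anti-PD-1 tumours lay below the lowest vehicle tumour, and all 16 combination tumours lay above the anti-PD-1 median, 9 of them above the highest anti-PD-1 tumour. Celecoxib tumours overlapped vehicle tumours, with 3 of 7 above the vehicle median. The effect was 2.08 with antibody (SE 0.27, edgeR adjusted p = 6.42e-06) and -0.30 without (SE 0.37). The interaction was 2.38 (SE 0.47, 95% interval 1.44 to 3.31, edgeR adjusted p = 0.0739), the smallest p of all genes. Leaving out 1 library at a time gave values from 2.15 to 2.56, with adjusted p from 0.0043 to 0.283 and under 0.05 in 5 of 49 fits. Among tumours labelled NR alone the interaction of Dbp was 2.82 (edgeR adjusted p = 0.0134).

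Tef (chr15:81802421-81826863, plus strand) ranged from 89.1 to 236 CPM with vehicle (median 131), 99 to 147 with celecoxib (median 137), 23.6 to 84.4 with anti-PD-1 (median 39.9) and 63 to 235 in the combination (median 102). Again no anti-PD-1 tumour reached the vehicle range, and all 16 combination tumours exceeded the anti-PD-1 median. The interaction of Tef was 1.43 (SE 0.32, edgeR adjusted p = 0.278). Per3 (chr4:151003652-151044665, minus strand) ranged from 60.1 to 151 CPM with vehicle (median 91.6), 67.2 to 92.8 with celecoxib (median 81.7), 19.7 to 58.7 with anti-PD-1 (median 32.5) and 36.4 to 137 in the combination (median 59.8). The interaction of Per3 was 1.09 (SE 0.26, edgeR adjusted p = 0.634). Per2, another repressor, had medians of 54.9, 58.7, 18.8 and 51 CPM in the same order of groups and effects of -0.04 without and 1.29 with antibody. Nr1d2 had medians of 125, 115, 63.4 and 105 CPM and effects of -0.09 and 0.65.

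Arntl moved the other way. It ranged from 5.55 to 14.1 CPM with vehicle (median 6.43), 3.43 to 9.42 with celecoxib (median 6.79), 11.8 to 36.2 with anti-PD-1 (median 18.6) and 2.92 to 16.7 in the combination (median 7.13). All 16 combination tumours lay below the anti-PD-1 median and 13 below the lowest anti-PD-1 tumour. Arntl fell by 1.20 with antibody (SE 0.18, edgeR adjusted p = 8.6e-05), its effect without antibody was -0.26 (SE 0.26), and its interaction was -0.94 (95% interval -1.58 to -0.30, unadjusted p = 0.0046, edgeR adjusted p over all genes 1). Both effects of Arntl thus had the same sign. Among the other members, the interactions were 0.99 for Per1, 0.97 for Nr1d1, 0.61 for Cry2, 0.48 for Cry1, 0.35 for Hlf, -0.12 for Clock, -0.30 for Nfil3 (a repressor at D-boxes) and -0.35 for Rora. The repressors Ciart, Bhlhe40 and Bhlhe41 are not given singly. The value of Hlf was -0.05 without vehicle replicate 6, and that of Rora was 0.44 without celecoxib replicate 3.

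**Figure D2:**
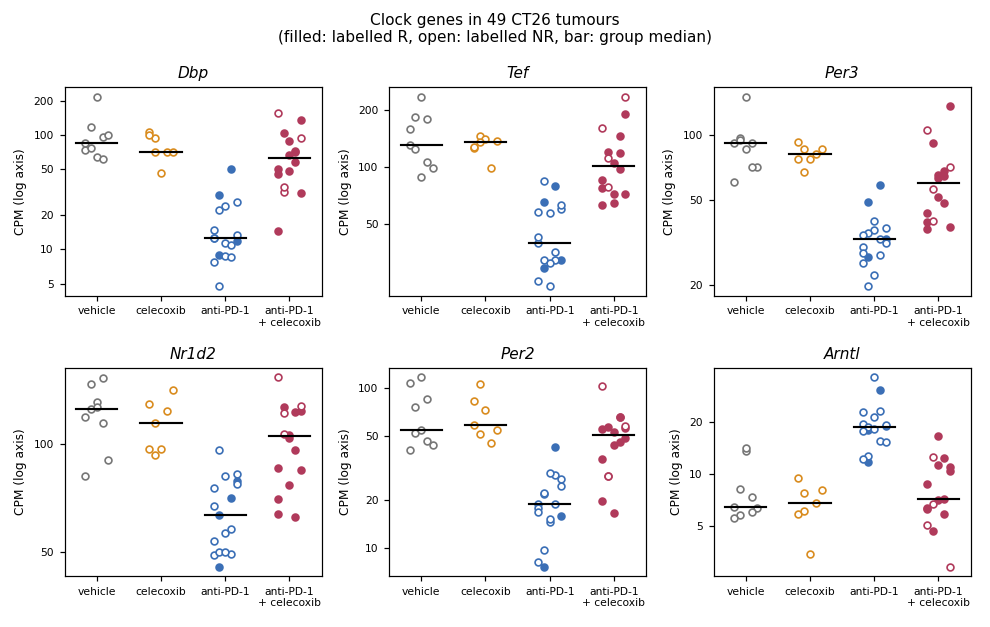
CPM on a log axis of 6 clock genes in each of the 49 tumours by treatment, with filled points for tumours labelled R, open points for NR and a bar at the group median. For Dbp, Tef and Per3 the anti-PD-1 tumours lie below every vehicle tumour and the combination tumours between or within both ranges. For Arntl the medians are 6.43, 6.79, 18.6 and 7.13 CPM in the same order of groups, highest with anti-PD-1 alone.

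The 3 genes with opposite effects at an unadjusted p under 0.05 in both settings were all lower with celecoxib alone and higher with celecoxib under anti-PD-1, and no effect exceeded 0.6 log2 units in size. Fbxo44, an F-box subunit of a ubiquitin ligase, ranged from 4.33 to 8.61 CPM with vehicle (median 5.72), 2.93 to 5.17 with celecoxib (median 3.81), 2.57 to 6.89 with anti-PD-1 (median 4.21) and 2.7 to 9.14 in the combination (median 5.36). All 7 celecoxib tumours lay below the vehicle median, 5 of them below the lowest vehicle tumour, and 14 of 16 combination tumours lay above the anti-PD-1 median. Its effects were -0.58 (SE 0.21) and 0.38 (SE 0.14), and the interaction was 0.96 (SE 0.25, 95% interval 0.46 to 1.46, edgeR adjusted p = 1.0). Sfmbt2, a Polycomb-related chromatin protein, had medians of 4.14 CPM for vehicle, 2.98 for celecoxib, 2.51 for anti-PD-1 and 3.36 in the combination. The effects of Sfmbt2 were -0.58 (SE 0.28) and 0.44 (SE 0.19), with 6 of 7 celecoxib tumours below the vehicle median. Slc2a8, the glucose transporter GLUT8, had medians of 9.51, 7.15, 7.56 and 9.05 CPM in the same order. Its effects were -0.34 (SE 0.16) and 0.23 (SE 0.11). All 3 genes are low, with means of 5.05, 3.20 and 8.32 CPM, and none passed either effect after adjustment. Both effects of Fbxo44 kept opposite signs at that level in 49 of 49 fits that left out 1 library, those of Sfmbt2 in 41 and those of Slc2a8 in 28. Among tumours labelled NR alone, and with the response label as an added term, 0 of the 3 did so, and without the 12 libraries of other tissue only Fbxo44 did.

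The next genes, ranked by the larger p of their 2 effects, fell short of that level. Higher with celecoxib under antibody and lower without were Selenom, a selenoprotein of the endoplasmic reticulum (-0.45 without and 0.27 with antibody), Rab2b, a small GTPase of the Golgi (-0.21 and 0.26), Cirbp, a cold-inducible RNA-binding protein (-0.28 and 0.33), Arfgef2, an exchange factor of vesicle traffic (-0.22 and 0.16), and Txndc16, a thioredoxin-domain protein (-0.31 and 0.22). Msi1, an RNA-binding protein that the interaction p named, had effects of -0.48 and 0.58. The reverse pattern, higher with celecoxib alone and lower under antibody, was led by Fhl3, a LIM-domain protein. Fhl3 ranged from 20.5 to 36.5 CPM with vehicle (median 24.8), 23.3 to 39.9 with celecoxib (median 35.6), 24.5 to 55.9 with anti-PD-1 (median 29.3) and 18 to 34.3 in the combination (median 28.1). Here 6 of 7 celecoxib tumours exceeded the vehicle median, and 6 of 16 combination tumours lay below the lowest anti-PD-1 tumour. The effects of Fhl3 were 0.31 (SE 0.16) and -0.28 (SE 0.11). It was followed by Rapgef4, an exchange factor activated by cyclic AMP (0.61 and -0.45), Elovl6, a fatty acid elongase (0.50 and -0.48), Mogs, a glucosidase of glycoprotein folding (0.25 and -0.22), Leo1, a subunit of the PAF1 transcription complex (0.22 and -0.15), and Dusp18, a phosphatase (0.29 and -0.20).

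**Figure D3:**
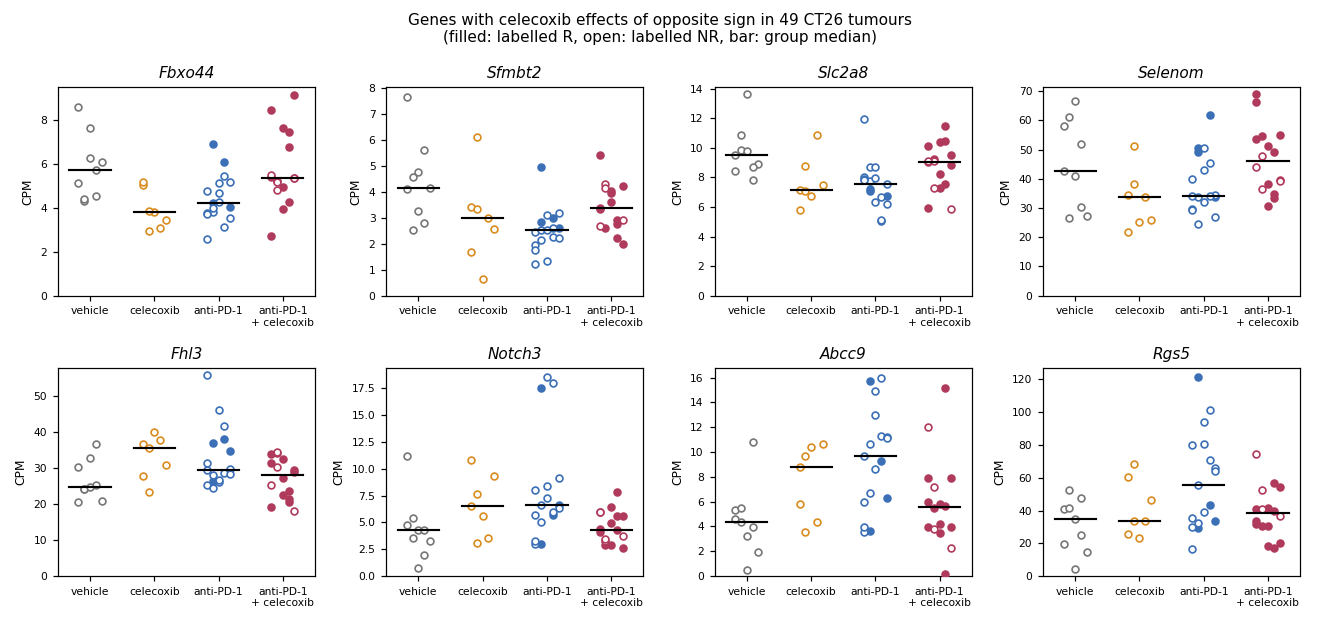
CPM on a linear axis from 0 of 8 genes whose celecoxib effects had opposite signs, in each of the 49 tumours, with filled points for R, open points for NR and a bar at the group median. In the upper row the celecoxib median lies below vehicle and the combination median above anti-PD-1. In the lower row the combination median lies below anti-PD-1, and the celecoxib median lies above vehicle for Fhl3, Notch3 and Abcc9 but not for Rgs5 (33.8 against 35.1 CPM).

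Pericytes, the contractile cells that wrap small vessels, gave the lowest median interaction of the 45 lists other than muscle and skin. Of 13 tested pericyte and smooth muscle genes 12 had a negative interaction, with a median of -0.78 (all genes: 51.5% positive, median 0.01), and 5 had an unadjusted p under 0.05 (all genes: 3.01%, and 1.56% with a negative value). The median effect was 0.08 without antibody and -0.41 with it, and 6 of the 13 were higher with celecoxib alone and lower under antibody (all genes: 19.1%). Notch3, the Notch receptor of mural cells, ranged from 0.75 to 11.2 CPM with vehicle (median 4.29), 3.11 to 10.8 with celecoxib (median 6.5), 2.99 to 18.5 with anti-PD-1 (median 6.6) and 2.61 to 7.86 in the combination (median 4.31). In the combination 15 of 16 tumours lay below the anti-PD-1 median. Its effects were 0.59 (SE 0.36) and -0.82 (SE 0.25), with an interaction of -1.41 (95% interval -2.29 to -0.52, edgeR adjusted p = 1.0). Abcc9, a potassium channel subunit of pericytes, ranged from 0.5 to 10.8 CPM with vehicle (median 4.33), 3.52 to 10.6 with celecoxib (median 8.81), 3.55 to 16 with anti-PD-1 (median 9.66) and 0.194 to 15.2 in the combination (median 5.58). Its effects were 0.75 (SE 0.41) and -0.68 (SE 0.28). Rgs5, a regulator of G protein signalling in pericytes, had effects of 0.40 and -0.59. Foxs1, a forkhead factor, fell by 1.07 under antibody (SE 0.22, edgeR adjusted p = 0.0141) and had an effect of -0.07 without it. The fifth, Des, encodes desmin, which skeletal muscle also makes: its interaction of -2.04 was 0.04 without the 12 libraries of other tissue, while the list's median was then -0.88.

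Endothelial genes had the same sign with smaller values. Of 22 tested members 18 had a negative interaction, with a median of -0.33, and 13 were higher with celecoxib alone and lower under antibody, against 19.1% of all genes. Robo4, a receptor of vessel endothelium, ranged from 2.88 to 10.7 CPM with vehicle (median 6.93), 3.43 to 12.6 with celecoxib (median 8.47), 4.04 to 18.3 with anti-PD-1 (median 11.8) and 2.03 to 9.65 in the combination (median 6.08). All 16 combination tumours lay below the anti-PD-1 median. Robo4 fell by 0.91 under antibody (SE 0.21, edgeR adjusted p = 0.0336), against an effect of 0.19 without it, and its interaction was -1.09 (95% interval -1.83 to -0.36). The level of the pericyte list in anti-PD-1 tumours had a median log2 CPM of 2.96, against 2.43 for vehicle, 2.70 under celecoxib and 2.24 in the combination, and the 4 groups overlapped. Among NR tumours alone the list medians were -0.77 for pericytes, with 0 of 13 positive, and -0.36 for endothelium, with 2 of 22 positive.

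Of the matrix genes, Spon2, Adamts4 and Mmp3 fell with celecoxib under antibody, and none of them passed without it. Spon2, a secreted matrix protein, ranged from 15.9 to 48.6 CPM with vehicle (median 27.8), 10.8 to 40.7 with celecoxib (median 30.5), 35 to 120 with anti-PD-1 (median 73.5) and 14.3 to 55.1 in the combination (median 34.4). All 16 combination tumours lay below the anti-PD-1 median. Spon2 fell by 1.09 under antibody (SE 0.17, edgeR adjusted p = 0.000187), its effect without antibody was -0.09 (SE 0.25), and the interaction was -0.997 (95% interval -1.59 to -0.40). Adamts4, a protease that cleaves cartilage proteoglycans, had effects of 0.14 and -0.77, Mmp3, stromelysin, 0.10 and -0.86, and Ajuba, a LIM-domain scaffold of cell junctions, 0.20 and -0.46. These 3 passed under antibody, with all 16 combination tumours below the anti-PD-1 median for each. Of 19 tested matrix proteases and their inhibitors 9 had a positive and 10 a negative interaction, with a median of -0.06 that lay between -0.13 and 0.08 when each library was left out. The 3 of them that passed under antibody (0.503% of all genes) were Adamts4, Mmp3 and Adam12, a membrane metalloprotease with effects of 0.05 and -0.79 (edgeR adjusted p = 0.0336 with antibody) that was named after its values were seen. Of 23 fibroblast and collagen genes 18 had a negative interaction, with a median of -0.27 that was -0.17 without celecoxib replicate 2, against 51.5% positive and a median of 0.01 over all genes.

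T cell and cytotoxic genes had positive interactions as estimates, with median effects near 0 without antibody, and these differed with the response label. All 24 tested T cell genes had a positive interaction, with a median of 1.09, and all 16 cytotoxic genes did so too, with a median of 0.90. Over all genes 51.5% were positive, with a median of 0.01. An unadjusted interaction p under 0.05 was reached by 1 of the 24 and 2 of the 16 (all genes: 3.01%). Members of a list are not independent. Without antibody the median effects were -0.03 and 0.14, and with antibody 1.07 and 1.16. Cd8a, a co-receptor of cytotoxic T cells, ranged from 0.55 to 25.1 CPM with vehicle (median 8.94), 1.05 to 32.6 with celecoxib (median 3.38), 0.124 to 47.5 with anti-PD-1 (median 1.42) and 0 to 84.8 in the combination (median 16). The interaction of Cd8a was 1.57 with a SE of 1.13 (95% interval -0.70 to 3.83). Ccl4, a chemokine of activated lymphocytes and macrophages, had medians of 20.8, 16, 14.3 and 44.9 CPM in the order vehicle, celecoxib, anti-PD-1 and combination, with 14 of 16 combination tumours above the anti-PD-1 median. Ccl4 rose by 1.67 under antibody (SE 0.40, edgeR adjusted p = 0.0373), against 0.03 without it (SE 0.57). Gzmk, a granzyme, had effects of -0.47 without and 1.52 with antibody. For Prf1 (perforin) both estimates were positive, 0.87 and 1.90, as they were for Gzmb (0.08 and 1.13), Ifng (0.37 and 1.02), Cd274 (PD-L1, 0.43 and 1.27) and the interferon-induced chemokine Cxcl9 (0.36 and 0.70). Pdcd1, which encodes PD-1, had effects of -0.32 and 1.33.

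The groups differ in the share of tumours labelled R, 12 of 16 in the combination against 4 of 17 with anti-PD-1, and 0 of 16 without antibody. Among NR tumours alone the T cell interaction had a median of -0.16, with 8 of 24 genes positive, and the cytotoxic interaction -0.42, with 4 of 16 positive. With the response label as an added term the medians were 0.65 and 0.33. The combination NR tumours number only 4. Their T cell level had a median log2 CPM of 2.41, against 3.47 in the 12 R tumours of the combination. With anti-PD-1 it was 2.00 in the 13 NR and 1.97 in the 4 R tumours. Levels of NR tumours ranged from 1.53 to 2.99 in the combination and from 1.05 to 4.37 with anti-PD-1. The NR median was thus higher in the combination, while the celecoxib median (2.20) was lower than that of vehicle (2.71). By these medians the T cell interaction among NR tumours has the opposite sign to the fitted value, so its sign is not settled. The clock repressors had a positive median among NR tumours, 0.91 with 7 of 8 positive. Without antibody no tumour is R, so the label does not vary there. Between the 2 antibody groups the share of R differs, so the label's part in the lymphocyte values cannot be told apart from that of treatment. The labels do not say whether R and NR record an outcome of treatment. If they do, the fits on NR tumours and with the label as a term condition on that outcome.

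**Figure D4:**
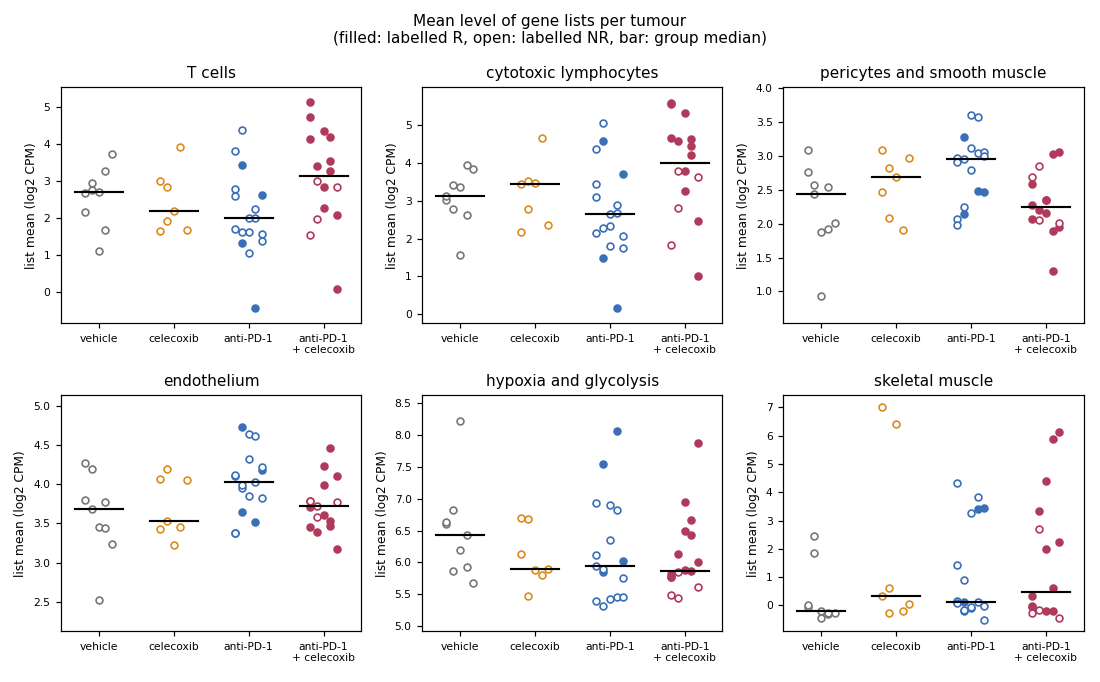
Mean log2 CPM of 6 gene lists in each of the 49 tumours by treatment, with filled points for R, open points for NR and a bar at the group median. The T cell medians are 2.71 for vehicle, 2.20 for celecoxib, 2.00 for anti-PD-1 and 3.14 in the combination, and the ranges overlap. Vehicle replicate 8 is the highest of its group for hypoxia and glycolysis (8.22), and celecoxib replicates 1 and 3 are the highest of theirs for skeletal muscle.

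MHC class II and mast cell genes also had positive median interactions. Of 10 tested genes of MHC class II presentation 9 had a positive interaction (median 0.83), none at an unadjusted p under 0.05, and among NR tumours the median was -0.16. Mast cell genes encode granule proteases and receptors of these tissue-resident cells. All 9 tested were lower in estimate with celecoxib alone (median -0.30), with 0 at an unadjusted p under 0.05 in that setting. Under antibody 8 of the 9 were higher (list median 0.52), and 18.9% of all genes showed this pattern of opposite signs. The tryptase Tpsb2 had medians of 22.7 CPM for vehicle, 22.9 for celecoxib, 19.6 for anti-PD-1 and 28.5 in the combination, with effects of -0.15 (SE 0.53) and 1.27 (SE 0.37). Tpsab1, a second tryptase, had effects of -0.41 (SE 0.61) and 1.18 (SE 0.42). Among NR tumours the mast cell median was 0.55, with 8 of 9 positive. Arg1, an arginase of suppressive myeloid cells, had effects of -1.0 (SE 0.47) without and -0.10 (SE 0.32) with antibody, and Cxcl2, a chemokine that attracts neutrophils, -1.10 (SE 0.66) and 0.21 (SE 0.44). Neither interaction reached an unadjusted p of 0.05.

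Targets of the glucocorticoid receptor, which stress hormones activate, had a positive interaction in 11 of 14 tested genes, with a median of 0.44, median effects of -0.17 without and 0.06 with antibody, and 3 genes at an unadjusted p under 0.05 (all genes: 3.01%). The median was 0.26 without vehicle replicate 6. Besides Per1 these were the metallothionein Mt2 (-0.91 and 0.08) and the kinase Sgk1 (-0.38 and 0.19). Mt2 ranged from 1297 to 6493 CPM with vehicle (median 1908) and from 1026 to 1900 with celecoxib (median 1659), with all 7 celecoxib tumours below the vehicle median. Fkbp5, a frequently used target of this receptor, had effects of -0.01 and -0.05.

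Several lists with large medians moved with single libraries or with the libraries of other tissue. Hypoxia and glycolysis genes had a positive interaction in 26 of 28 members with a median of 0.46, and without vehicle replicate 8, whose list mean was 8.22 against 6.83 for the next vehicle tumour, the median was -0.01 with 13 positive. With all libraries the list's median effect was -0.58 without antibody, with 27 of 28 members negative, and -0.14 with it, with 24 negative. Angptl4, a lipase inhibitor induced by low oxygen, fell by 0.89 under antibody (SE 0.16, edgeR adjusted p = 0.00186) with an effect of -0.11 without it. Both effects of Angptl4 had the sign of most of the list, whereas its interaction of -0.78 was 1 of 2 negative ones among the 28 members. All 23 skeletal muscle genes had a negative interaction (median -3.22), and the 2 highest muscle levels of all tumours were in celecoxib replicates 1 and 3 (7.03 and 6.42, vehicle median -0.19). Without the 12 libraries of other tissue 14 muscle genes remained testable, of which 13 had a positive interaction. Hspb1 (a small heat shock protein of muscle and skin, interaction -2.60), Krt10 (-2.22) and Sbsn (suprabasin, -2.70), the latter pair epidermal, were among the smallest p of negative interactions. Krt10 reached 149 CPM and Sbsn 109 CPM in 1 celecoxib tumour, against group medians of 6.34 and 2.07, and without celecoxib replicate 3 their interactions were -0.11 and 0.58. The value of Hspb1 was -1.46 without celecoxib replicate 1. The hair follicle keratin Krt25 had a median of 0 CPM in the vehicle, anti-PD-1 and combination groups and 91.5 CPM in its highest celecoxib tumour. For adipocyte genes 10 of 11 interactions were positive (median 1.96), and without vehicle replicate 6 the median was -0.26.

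**Figure D5:**
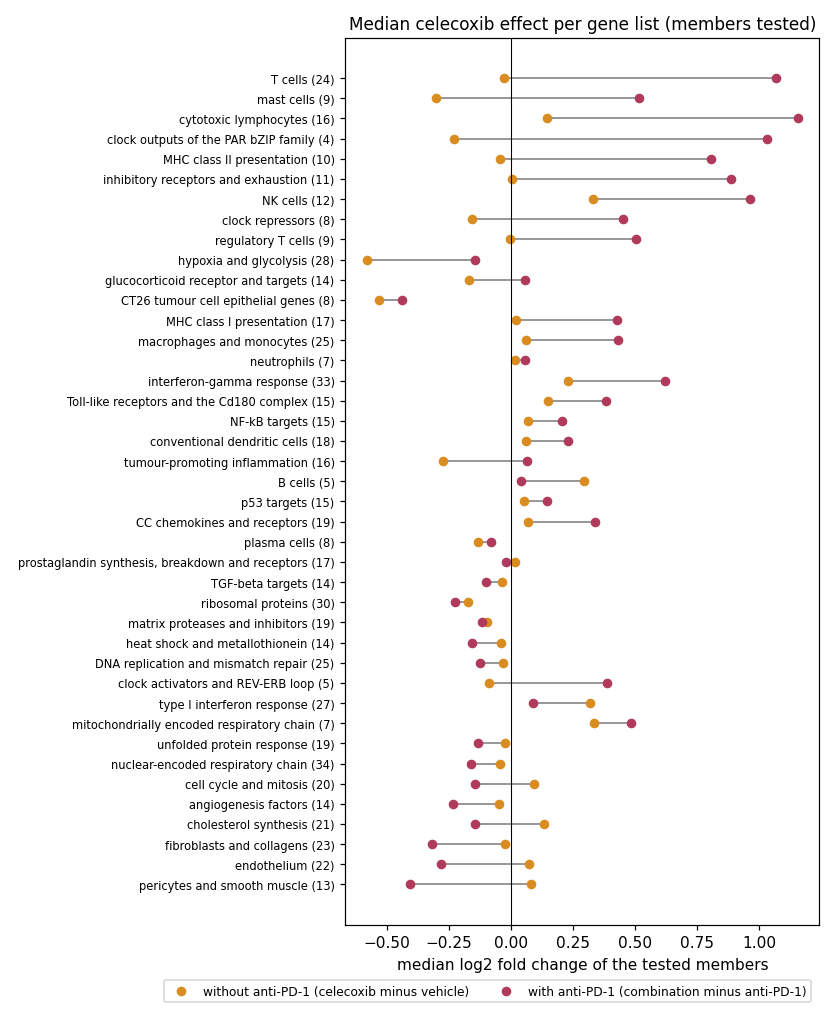
For each gene list other than those of other tissue, the median log2 fold change of its tested members (number in brackets) for celecoxib without anti-PD-1 and with anti-PD-1, joined by a line and ordered by the median interaction. T cell genes (-0.03 and 1.07) are at the top and pericyte genes (0.08 and -0.41) at the bottom. No error is drawn, since members of a list are not replicates.

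The 69 genes that passed under antibody were also read in the tumours without it, which share no library with them. Of the 46 that rose, 37 had a positive estimate without antibody and 9 a negative one, with a median of 0.17, against -0.001 over all genes, of which 49.8% were positive. Only 2 of them, the mitochondrially encoded mt-Nd5 (0.53 without and 0.71 with antibody) and the small GTPase Rap2b (0.28 and 0.38), had an unadjusted p under 0.05 without antibody, and both moved in the same direction in the 2 settings. The pair was named after its values were seen. Of the 23 that fell, 15 had a negative and 8 a positive estimate without antibody, with a median of -0.06. None of the 69 had effects of opposite sign that both reached an unadjusted p under 0.05.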

How the data were processed

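RNA of 49 CT26 tumours was read as 3′-end libraries (QuantSeq FWD), per the labels' protocols. The deposited table holds raw counts per Ensembl gene for 39179 genes. The authors made them with STAR and featureCounts after bcl2fastq, and also used limma (builds GRCm38 and mm10, per the submitters' processing notes). Versions, annotation release and strand setting: not given in the sources used here. A second deposited table was not used. Symbols and coordinates came from GENCODE on GRCm38 (37693 genes matched).

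Groups came from the labels, and replicate numbers only name tumours. Counts were fitted in 1 model of 4 groups with edgeR 4.0.16 in R 4.3.3 (TMM, filterByExpr, robust quasi-likelihood, 13726 genes), with Benjamini-Hochberg adjustment and a limit of 0.05 on the adjusted p. The effect with antibody, the effect without it and the interaction were contrasts of that fit. Opposite directions took the larger p of both effects where their signs differed. Standard errors are the fold change over the square root of F, and list levels are means of log2 CPM with a prior count of 2. Lists were described by counts and medians, with no test. No library was a copy of another: the most alike pair had a chi-square of 16.4 per gene. In data simulated for the interaction on 13606 genes, 200 were given a true difference, 100 of 1 log2 unit and 100 of 2. There edgeR found 60% of those of 1 unit and 82% of those of 2, and called 6 genes without a difference. DESeq2 1.42.0 found 61% and 86%, and called 11. The simulated counts were drawn independently per gene, from 1 mean shared by all groups apart from the planted differences. Libraries with other tissue and genes that vary together were not simulated. The adjusted p also depends on how many genes truly differ, which is not known for the tumours. These rates therefore need not hold there, and recovery in the tumours themselves was not tested. In the tumours the interaction was 1.43 for Tef (edgeR adjusted p = 0.278) and 2.38 for Dbp (edgeR adjusted p = 0.0739), and neither passed.

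The members, gene lists and rules were chosen with earlier results of these data known. Genes were named as those of smallest interaction p per direction (up to 8, mean of at least 2 CPM), those of smallest larger p with opposite signs (up to 8 per direction), the 2 members of smallest p in each list described, and a panel of 20. Further list members were chosen after their values were seen, and not every gene these rules pick is reported here. Alternatives were DESeq2, limma-voom 3.58.1, RLE normalization, no filter on low counts, a muscle covariate, the response label as a term, NR tumours only, removal of 12 libraries of other tissue, and leaving out each library.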

Additional observations from a re-analysis of the deposited data

Results flagged for a closer look

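In 78 genes and lists, each vehicle and celecoxib tumour was compared with the nearest of its group by Dixon's gap ratio, and 19 gaps passed the 95% limit, where chance flags about 1 in 20 groups. The larger antibody groups were not checked in this way. Values are log2 CPM with a prior count of 2.

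Vehicle replicate 8 was highest for Dbp (7.75, next 6.87), Ptgs2 (5.93, next 4.06) and the hypoxia and glycolysis list (8.22, next 6.83). The same tumour was lowest for Mmp3 (1.70, next 3.20), Tpsb2 (1.39, next 4.22), Tpsab1 (1.81, next 4.05) and the mast cell list (1.63, next 3.04). Vehicle replicate 6 was highest for the adipocyte list (6.65, next 2.65), Rora (4.65, next 3.68) and Msi1 (3.45, next 2.24), and lowest for Dusp18 (4.45, next 4.87). Vehicle replicate 5 was lowest for Rapgef4 (-1.10, next 0.70). Vehicle replicate 4 was highest for Krt25 (-0.79, next -1.55), a gene near 0 counts in that group.

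Celecoxib replicate 3 was highest for the skin epithelium list (6.57, next 2.08), Krt10 (7.22, next 3.25), Sbsn (6.78, next 1.65) and Rora (6.08, next 3.99), and lowest for Spon2 (3.47, next 4.61). Celecoxib replicate 4 was lowest for Tef (6.63, next 6.99).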

How the results depend on the processing

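No paired analysis was possible because replicate numbers only name tumours in the order of the labels. The interaction, with 0 genes called, had 2 with DESeq2, 1 with limma-voom and 1 among NR tumours, and 0 to 1 when each library was left out: Dbp passed without anti-PD-1 replicates 12 or 14 or without combination replicates 2, 10 or 11. Celecoxib without antibody, with 0 called, had 7 with DESeq2 and 49 with no filter on low counts. Against 69 genes under antibody there were 297 with DESeq2, 33 with limma-voom, 22 with no filter, 151 with the muscle covariate, 4 among NR tumours, 8 with the response label as a term and 11 without libraries of other tissue. Leaving out 1 library gave 13 (without combination replicate 16) to 449 (without combination replicate 15), over 1.5 times away from 69 in 21 of 49 fits. These were the fits without anti-PD-1 replicates 1, 2, 3, 4, 5, 7, 8, 9, 12, 13, 14, 15 and 16 and without combination replicates 1, 3, 4, 9, 11, 14, 15 and 16. Against 3 genes of opposite direction at an unadjusted p under 0.05 there were 5 with DESeq2, 5 with RLE normalization, 57 with no filter, 6 among NR tumours and 1 with the response label as a term (0 of the 3 in either of these, 1 of the 3 with the muscle covariate), and 1 to 6 when each library was left out, with 1 without vehicle replicate 7 or celecoxib replicate 5.

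Of 65 genes recomputed, most kept the sign of the interaction. It was reversed with DESeq2 for Sbsn (0.53) and Rora (0.43). Among NR tumours it was reversed for Ptgs2 (-0.78), Fkbp5 (0.030), Cd8a (-0.085), Gzmb (-0.57), Prf1 (-0.64), Ifng (-0.43), Cxcl9 (-0.32), Ccl4 (-0.13), Cxcl2 (-0.27), Pdcd1 (-0.25) and Cry1 (-0.11), and with the response label as a term for Ptgs2 (-0.44), Fkbp5 (0.018), Ifng (-0.089) and Cxcl9 (-0.17). Without libraries of other tissue it was reversed for Krt10 (0.12), Sbsn (0.67), Ptgs2 (-0.28), Fkbp5 (0.060), Rora (0.040) and Des (0.038). Leaving out each library gave ranges that crossed 0 for Fkbp5 (-0.19 to 0.15), Hlf (-0.050 to 1.07), Ptgs2 (-0.067 to 0.80), Rora (-0.59 to 0.44) and Sbsn (-2.998 to 0.58). The causes were not tested. The 7 celecoxib and 9 vehicle tumours limit the precision of every interaction.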

Other observations

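In 6 further lists, of cholesterol synthesis, the cell cycle, ribosomal proteins, the mitochondrially encoded respiratory chain and both interferon responses, mt-Nd5 under antibody was the only member that passed in either setting. Over all genes 51.5% of interactions were positive, with a median of 0.01. Cholesterol synthesis genes had a negative interaction in 20 of 21 members (median -0.22), with median effects of 0.13 without and -0.15 with antibody, and without the 12 libraries of other tissue the median was 0.04 (-0.12 without celecoxib replicate 3 alone). Cell cycle and mitosis genes had a negative interaction in 19 of 20 (median -0.18), with medians of 0.09 and -0.15. All 30 ribosomal protein genes had a negative estimate without antibody (median -0.18) and 28 did with it (median -0.22), and their interaction median was -0.03, between -0.10 and 0.07 when each library was left out. The 7 tested mitochondrially encoded genes of the respiratory chain had medians of 0.34 and 0.48. Interferon-gamma response genes had positive median effects in both settings (0.23 and 0.62), with 29 of 33 interactions positive. The median of their list level was higher in R than in NR tumours, with overlapping ranges. With anti-PD-1 the median log2 CPM was 6.565 in 4 R tumours (4.15 to 7.30) and 5.48 in 13 NR tumours (4.77 to 7.20). In the combination it was 7.03 in 12 R tumours (4.92 to 7.66) and 5.96 in 4 NR tumours (4.99 to 6.74). Type I interferon genes had medians of 0.32 and 0.09 and 11 of 27 interactions positive (4 of 27 without celecoxib replicate 6).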
